A study of Mus musculus and Homo sapiens with 11 samples.

Results

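The genes described here encode the machinery that divides and joins mitochondria: the fission factors Dnm1l, Mff, Fis1, Gdap1 and Mtfr1, the fusion GTPases Mfn1, Mfn2 and Opa1, and the inner membrane proteases Oma1 and Yme1l1, which cut OPA1. The 10 genes were taken by name, with earlier results of these data known, and all 10 were among the 24062 genes listed for the mouse libraries. RNA was sequenced from 3 libraries of MMTV-ErbB2-BrM 2a, the brain metastatic derivative of a mouse breast cancer line (BrM below), and from 3 libraries of MMTV-ErbB2-Par, the parental line it was compared with. Both groups carry the MMTV-ErbB2 transgene, in which a viral promoter active in mammary epithelium expresses the receptor gene also known as HER2. The labels state neither a further genotype, nor an age, nor whether the derivative is a clone. The series also has 5 human libraries, not analysed here.

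Mitochondria form a network that is continually cut and rejoined. For fission, the cytosolic dynamin DRP1 is recruited by receptors of the outer membrane and constricts the organelle. Mitofusins join outer membranes, and OPA1 joins inner membranes and holds cristae in shape. OMA1, which is switched on by stress, and YME1L1 cleave OPA1 into short forms, a step of regulation that RNA levels do not show.

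Reads assigned to genes numbered 29877087, 38512988 and 39106969 in BrM libraries 1, 2 and 3, against 39304974, 46683735 and 40140819 in parental libraries 1, 2 and 3. Values are scaled reads, the read counts divided by a factor for each library, and n is 3 libraries per group throughout. Summed levels of 10 epithelial markers lay between 216615 and 261875 in BrM libraries and between 147604 and 156370 in parental ones, with Epcam, Krt8 and Krt18 abundant in all 6 and Krt7 at 4.88 or less; of the 9 tested, 5 were called higher in BrM, among them Krt8 and Krt18, and 1 lower (Cdh1, log2 fold change -0.63). Of 9 fibroblast and pericyte markers the sums were 210 to 1016 in BrM and 1567 to 5901 in parental libraries, with Lum at 0 in both. Of the 5 tested, 3 were called lower in BrM, and Col1a1 and Pdgfra were not called. Pdgfrb was at 0 to 3.73 in BrM against 1002 to 3683 in parental libraries, and Dcn at 0 against 232 to 857. Col1a2 was at 0 to 1.22 in BrM against 9.44 to 148. Brain cell markers summed to 2213 to 2339 in BrM and 1561 to 2782 in parental libraries, with Olig2 at 0 in both. Of the 4 tested, Gfap (log2 fold change 2.11) and Mbp (0.87) were called higher in BrM, and S100b lower, at 0.956 to 4.66 in BrM against 218 to 1777 in parental libraries. Markers of immune and endothelial cells summed to 219 to 2740 in BrM and 256 to 667 in parental libraries, with Hbb-bs at 0 in both. BrM library 1 stood apart from the other 2 BrM libraries, for example in the immune marker Cd68, at 2670 against 209 and 211. Aif1 was at 42.7 there against 1.91 and 5.59, beside 41.2 to 55.0 in parental libraries. Ptprc, of the same list, was at 4.88, 1.91 and 4.66 in BrM libraries 1, 2 and 3. Neither Cd68 nor Aif1, the 2 tested, was called. The part of these markers in the results below was not tested, and in such bulk libraries fewer cells of a type and less RNA per cell cannot be told apart. No label says whether libraries of a group were grown as separate cultures, so the tests measure the spread between libraries, which may be technical.

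The comparison asks how RNA levels in the brain metastatic cells stand beside those of their line of origin. It gave no called difference for any tested fission or fusion gene. With limma at an adjusted p under 0.05, 0 of 9 tested genes passed, where 28.1% of all 13821 tested genes did, 12.2% as higher and 15.8% as lower. At an unadjusted p under 0.05 there were 3 of 9 (Mfn1, Yme1l1 and Dnm1l), against 40.9% of all tested genes. On recovered reads edgeR called 0 of the 9, where it called 3753 of all 13821 tested genes. DESeq2 called 3 of the 9 (the same 3 genes), where it called 5075 of the 13821. Differences were small in size as well. The median absolute log2 fold change of the 9 was 0.24, against 0.48 over all tested genes, and the signed median was 0.03, against -0.05. Of all tested genes, 52.4% differed by more than Oma1, which had the highest absolute log2 fold change of the 9 at 0.45. Groups did not overlap for 4 of the 9, Dnm1l and Opa1 being higher and Mfn1 and Yme1l1 lower in every BrM library, where 48.0% of all tested genes did not overlap. All tested genes, the background of these comparisons, were not matched to the 9 for level. The share of them with a higher mean was 72.6% for Oma1, but only 8.31% (Dnm1l) to 28.6% (Mfn2) for the rest of the 9. The part of level in the smaller differences of the 9 was not tested. Apart from Oma1, the 95% intervals of the 9 ran from 1.65-fold lower to 1.45-fold higher. The 10th gene, Gdap1, had a mean too low to be tested and was nearly absent from the derivative.

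**Figure D1:**
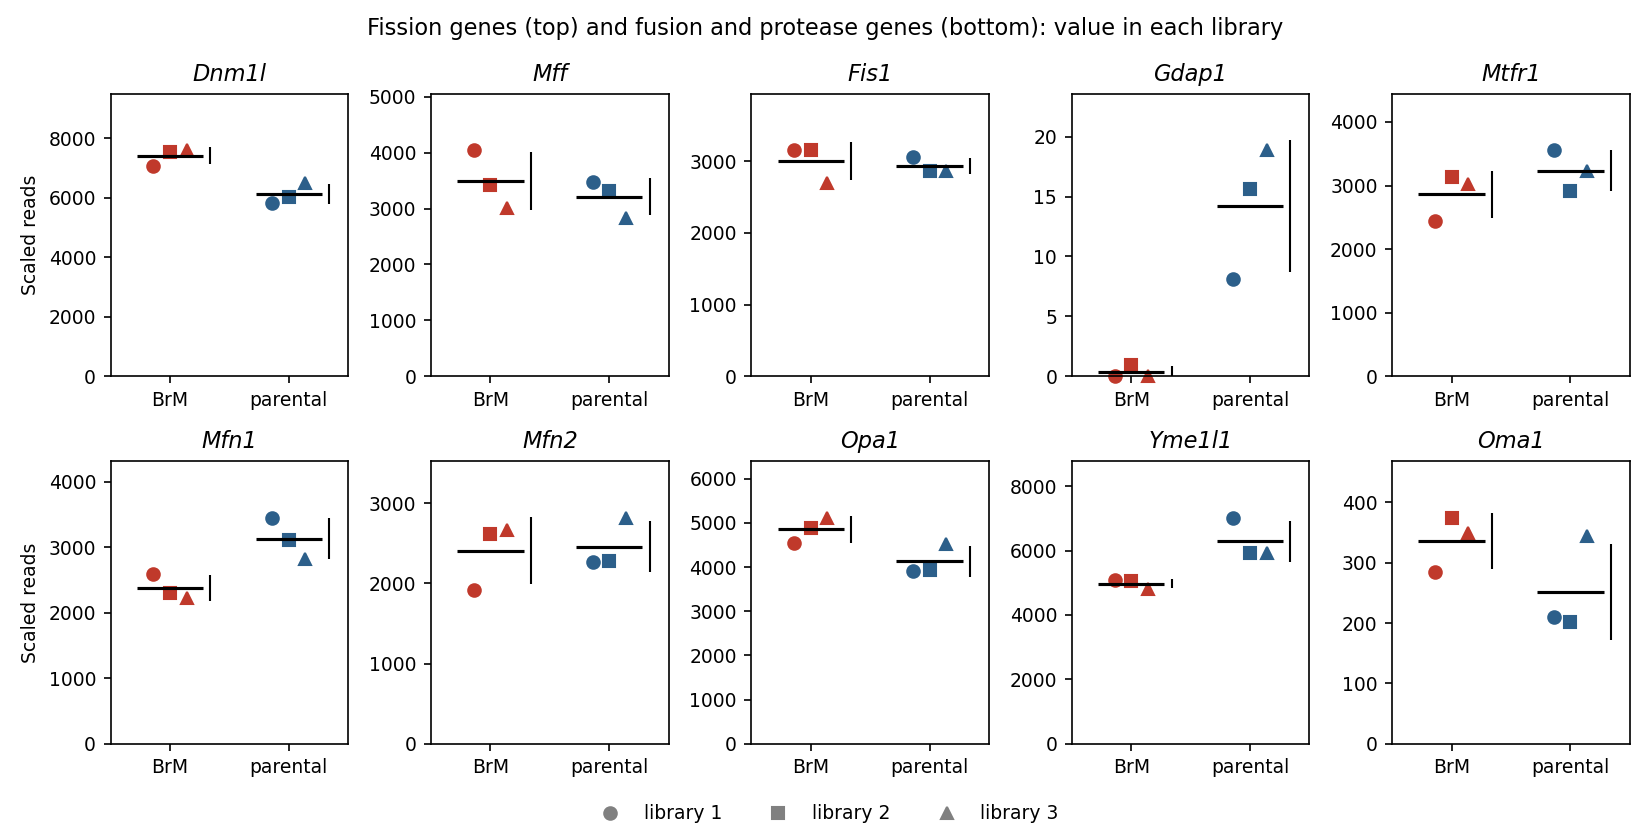
Scaled reads of each gene (vertical axes, starting at 0) in the 3 BrM libraries (red, left) and the 3 parental libraries (blue, right). Symbols are library numbers, horizontal bars group means and vertical bars ± 1 SD. Dnm1l and Opa1 sit higher and Mfn1, Yme1l1 and Gdap1 lower in every BrM library, and the groups overlap for the other 5.

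Dnm1l encodes DRP1, the GTPase that constricts mitochondria (GRCm38 chromosome 16, 16312230 to 16358959, minus strand). It held 7086, 7543 and 7612 scaled reads in BrM libraries 1, 2 and 3, against 5828, 6043 and 6503 in parental libraries 1, 2 and 3. The lowest BrM library thus stood above the highest parental one. Means were 7413 ± 286 in BrM and 6125 ± 345 in parental cells (SD), a log2 fold change of 0.28 (SE 0.11, 95% interval 0.01 to 0.54) that missed the threshold (adjusted p = 0.108). It passed under DESeq2 (adjusted p = 0.0206) and without BrM library 1 (0.0406). An antisense gene, Gm49521, shares 243 exonic bases with Dnm1l, and whether reads were counted by strand is not given in the sources used here, so reads of the overlap cannot be assigned to either gene.

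Mff and Fis1, which encode receptors that bring DRP1 to the outer membrane, had values that overlapped between the groups. Mff, the main such receptor (chromosome 1, 82724890 to 82752394, plus strand), held 4047, 3417 and 3017 scaled reads in BrM libraries 1, 2 and 3, against 3481, 3314 and 2839 in parental ones. The ranges overlap, and the log2 fold change was 0.12 (SE 0.16, 95% interval -0.26 to 0.49, adjusted p = 0.619). C430014B12Rik, on the other strand, shares 195 exonic bases with Mff. Fis1, a small tail-anchored receptor (chromosome 5, 136953275 to 136966234, plus strand), held 3154, 3156 and 2700 scaled reads in BrM libraries, against 3058, 2864 and 2869 in parental ones. BrM library 3 was the lowest of all 6, and BrM libraries 1 and 2 the highest. Its group means of 3003 ± 263 in BrM and 2930 ± 111 in parental cells gave a log2 fold change of 0.03 (SE 0.12, 95% interval -0.26 to 0.32, adjusted p = 0.868). Mief1 and Mief2, among the further fission factors below, are named here after their values were seen. Mief1 was higher in every BrM library, with a log2 fold change of 0.44 (limma adjusted p = 0.0563). Mief2 overlapped between the groups, at -0.14 (limma adjusted p = 0.701).

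Mtfr1, a fission regulator (chromosome 3, 19187327 to 19220817, plus strand), held 2438, 3128 and 3025 scaled reads in BrM libraries 1, 2 and 3, against 3559, 2914 and 3224 in parental ones. BrM library 1 was the lowest of all 6 and parental library 1 the highest, with the other 4 interleaved. The log2 fold change was -0.18 (SE 0.15, 95% interval -0.54 to 0.18, adjusted p = 0.420).

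Gdap1, an outer membrane protein that promotes fission and is mutated in a form of Charcot-Marie-Tooth neuropathy (chromosome 1, 17145362 to 17164271, plus strand), stood furthest apart between the groups. It had 0, 1 and 0 reads in BrM libraries 1, 2 and 3, against 8, 19 and 20 reads in parental libraries 1, 2 and 3. In scaled reads that is 0, 0.956 and 0 in BrM and 8.14, 15.6 and 18.9 in parental libraries, so that every parental library stood above every BrM library. By the ratio of reads Gdap1 was 42.4-fold lower in BrM (exact 95% interval 7.25 to 1710, for counting error only). The level was low in the parental line too: 3 reads, set as a floor for a count of 0, correspond to 2.79 to 3.66 scaled reads in the BrM libraries. With no filter on low values, limma gave Gdap1 a log2 fold change of -3.53 (SE 0.50, adjusted p = 0.00347). That fit adds 1 to each value before the log, so with BrM values this low its fold change and SE depend on the addition. The Gdap1 paralogue Gdap1l1, named after its values were seen, had no read in BrM, against 29 reads over the parental libraries (11.2, 9.06 and 6.61 scaled reads). With 3 reads standing in for the BrM total it was 8.72-fold lower, a value that leaves out the counting error of the 29 reads. The files do not say how reads shared by both genes were counted.

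The mitofusins, which join outer membranes, did not pass the test either, with values of Mfn1 that did not overlap between the groups and values of Mfn2 that did. Mfn1 (chromosome 3, 32529465 to 32579239, plus strand) held 2595, 2297 and 2229 scaled reads in BrM libraries 1, 2 and 3, against 3451, 3111 and 2820 in parental ones. All 3 BrM libraries lay under the lowest parental library. Means were 2374 ± 195 in BrM and 3127 ± 316 in parental cells, 1.32-fold lower (log2 fold change -0.40, SE 0.13, 95% interval -0.72 to -0.07), which missed the threshold (adjusted p = 0.0713) but passed under DESeq2 (0.0414) and without BrM library 1 (0.0206).

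Mfn2, which also tethers mitochondria to the endoplasmic reticulum (chromosome 4, 147873599 to 147904704, minus strand), held 1924, 2622 and 2672 scaled reads in BrM libraries 1, 2 and 3, against 2272, 2283 and 2822 in parental ones. BrM library 1 was the lowest of all 6, while BrM libraries 2 and 3 lay among the parental ones. The log2 fold change was -0.04 (SE 0.18, 95% interval -0.47 to 0.39, adjusted p = 0.889), and it turned positive under 4 of 21 alternatives, for example 0.04 with scaling by library totals and 0.11 without BrM library 1.

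Opa1, the inner membrane fusion GTPase (chromosome 16, 29579334 to 29654884, plus strand), held 4537, 4895 and 5122 scaled reads in BrM libraries 1, 2 and 3, against 3912, 3938 and 4530 in parental ones. The groups did not overlap, but the lowest BrM library and the highest parental one were close to each other. The log2 fold change was 0.23 (SE 0.12, 95% interval -0.06 to 0.53, adjusted p = 0.197).

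Neither of the proteases that cut OPA1 passed the test. Yme1l1, an ATP-dependent protease facing the intermembrane space (chromosome 2, 23156369 to 23199260, plus strand), held 5073, 5044 and 4806 scaled reads in BrM libraries 1, 2 and 3, against 7027, 5911 and 5927 in parental ones. Every BrM library lay under every parental one, and the BrM libraries were within 1.06-fold of each other. Means were 4975 ± 146 in BrM and 6288 ± 640 in parental cells, 1.26-fold lower (log2 fold change -0.33, SE 0.12, 95% interval -0.62 to -0.04, adjusted p = 0.0854), and the gene passed under DESeq2 (0.0490) and without BrM library 1 (0.0492).

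Oma1, the stress-activated protease (chromosome 4, 103313812 to 103371868, plus strand), held 284, 375 and 349 scaled reads in BrM libraries 1, 2 and 3, against 210, 202 and 344 in parental ones. Parental library 3 lay among the BrM libraries, and the other 2 parental libraries below all of them. Means were 336 ± 46.6 in BrM and 252 ± 79.8 in parental cells, a log2 fold change of 0.45 (SE 0.28) with the widest interval of the 9, -0.22 to 1.12, so that a difference of up to 2.18-fold lies within it (adjusted p = 0.277).

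**Figure D2:**
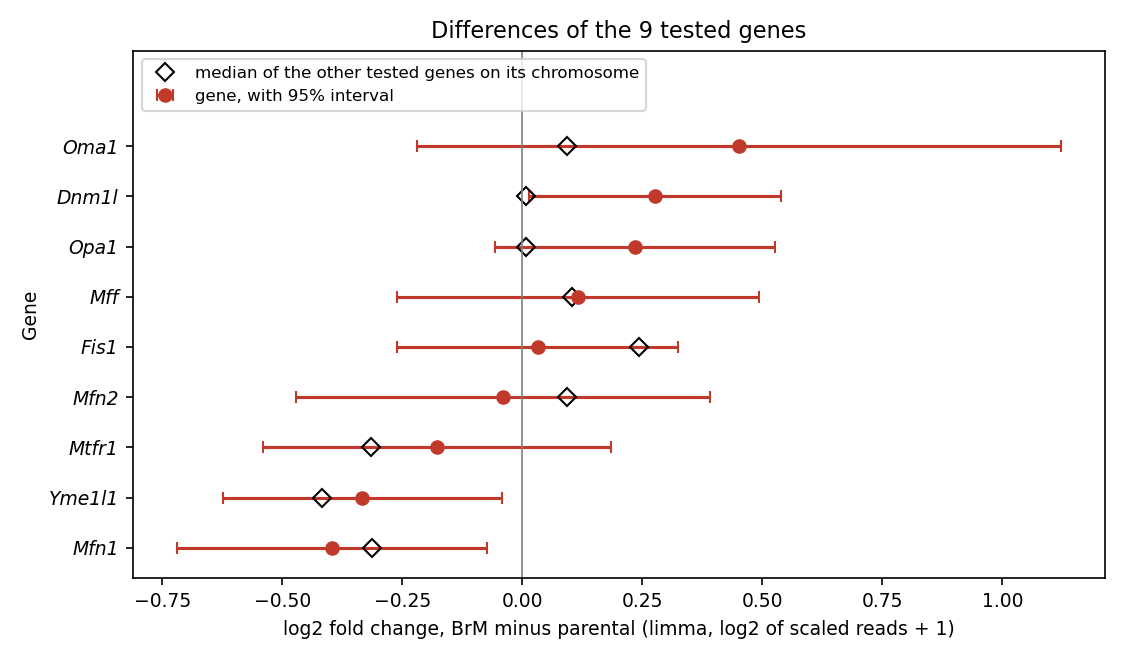
log2 fold change of BrM minus parental (horizontal axis) for the 9 tested genes, with 95% intervals from limma. Open diamonds are the median log2 fold change of the other tested genes on the same chromosome; for Mfn1 and Yme1l1 gene and diamond lie close together, at -0.40 beside -0.31 and -0.33 beside -0.42.

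Where the genes lie in the genome set their differences beside those of whole chromosomes. The median log2 fold change of the other tested genes was -0.42 on chromosome 2, which holds Yme1l1 and had the lowest median of 20 chromosomes, and -0.31 on chromosome 3, which holds Mfn1 and Mtfr1. With each chromosome's median removed, the log2 fold change was 0.06 for Yme1l1, -0.10 for Mfn1 and 0.12 for Mtfr1. Dnm1l and Opa1 share chromosome 16, where the median was 0.01, and kept 0.25 and 0.21. Within 1 Mb of Opa1 the 9 other tested genes had a median of -0.54, and the 23 within 1 Mb of Dnm1l one of -0.12, both below the values of Opa1 and Dnm1l themselves. Such neighbours had medians of the gene's own sign for Yme1l1 (-0.31), Mfn1 (-0.24), Mtfr1 (-0.18) and Fis1 (0.35). The sign was the opposite for Oma1 (-0.29), Mff (-0.11) and Mfn2 (0.14). With chromosome medians removed Fis1 stood at -0.20, and the other genes of chromosome 5 had a median of 0.24. The part of such chromosome-wide differences in the values of single genes was not tested.

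The start regions of the 4 tested genes whose groups did not overlap are shown, as windows from 250 bases before to 50 bases after each start that RefSeq lists (GRCm38.p6), written 5′ to 3′ along the gene's strand. RefSeq lists 2 starts for Dnm1l. Capitals mark matches on either strand to the NRF1 core TGCGCA, the GABP motif CCGGAAG and the CCAAT box. NRF1 and GABP are factors known for binding near nuclear genes of mitochondrial proteins.

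Dnm1l, chr16:16358526-16358825, minus strand: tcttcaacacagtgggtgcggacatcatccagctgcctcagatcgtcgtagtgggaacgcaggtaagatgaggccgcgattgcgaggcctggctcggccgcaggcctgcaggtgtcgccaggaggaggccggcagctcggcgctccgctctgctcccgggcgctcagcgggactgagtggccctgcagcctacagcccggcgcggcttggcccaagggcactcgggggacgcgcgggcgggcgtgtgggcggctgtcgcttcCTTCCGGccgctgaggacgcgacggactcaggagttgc
Dnm1l, chr16:16358982-16359281, minus strand: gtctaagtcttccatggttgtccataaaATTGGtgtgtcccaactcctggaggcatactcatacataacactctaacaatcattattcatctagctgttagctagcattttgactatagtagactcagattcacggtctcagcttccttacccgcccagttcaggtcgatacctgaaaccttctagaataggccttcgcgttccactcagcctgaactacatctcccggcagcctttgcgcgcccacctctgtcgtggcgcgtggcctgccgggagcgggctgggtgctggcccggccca
Opa1, chr16:29579084-29579383, plus strand: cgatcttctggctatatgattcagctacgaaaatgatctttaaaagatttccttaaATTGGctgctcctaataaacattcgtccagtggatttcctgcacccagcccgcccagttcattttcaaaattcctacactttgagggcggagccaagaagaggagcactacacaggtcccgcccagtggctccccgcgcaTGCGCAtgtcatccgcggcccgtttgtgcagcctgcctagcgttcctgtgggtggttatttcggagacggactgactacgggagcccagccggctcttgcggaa
Mfn1, chr3:32529232-32529531, plus strand: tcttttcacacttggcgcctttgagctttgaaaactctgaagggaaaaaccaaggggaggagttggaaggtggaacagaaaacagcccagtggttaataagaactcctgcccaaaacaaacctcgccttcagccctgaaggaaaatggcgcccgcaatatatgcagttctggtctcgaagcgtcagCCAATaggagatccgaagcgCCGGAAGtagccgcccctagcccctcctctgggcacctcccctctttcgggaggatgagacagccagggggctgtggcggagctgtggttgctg
Yme1l1, chr2:23156255-23156554, plus strand: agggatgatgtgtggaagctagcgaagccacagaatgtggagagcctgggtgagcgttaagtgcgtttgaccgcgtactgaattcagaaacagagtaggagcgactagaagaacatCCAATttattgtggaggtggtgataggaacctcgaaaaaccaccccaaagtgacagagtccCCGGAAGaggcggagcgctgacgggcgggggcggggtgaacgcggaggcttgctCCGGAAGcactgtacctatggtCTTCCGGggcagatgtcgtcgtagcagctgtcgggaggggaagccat

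The Yme1l1 window held the GABP motif 3 times, the Mfn1 window and 1 Dnm1l window once each, and the Opa1 window not at all. Only Opa1 of these 4 held the NRF1 core, once. Windows of 8 of the 10 genes were available, 13 in all, and those of Gdap1 and Mtfr1 were not used here. Of the 13 windows, 5 held the GABP motif, 2 the NRF1 core, 6 the CCAAT box and 11 a GC box (GGGCGG), while none held TATAAA or the E-box CACGTG. The windows of Mff overlap each other, as do those of Mfn2, so the same letters can count more than once. Of all 32851 windows of the same length, 8.9% held the GABP motif, 7.8% the NRF1 core, 37.4% the CCAAT box, 35.7% a GC box, 13.6% TATAAA and 7.2% the E-box. The 13 windows had 8 to 33 CpG dinucleotides, above the median of 7 over all windows. Of the 4 genes shown, the GABP motif thus occurred near 1 of the 2 higher in every BrM library (Dnm1l) and both that were lower, and the CCAAT box near all 4. A match describes letters and shows no binding.

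Ratios within a library do not depend on its scaling. Mfn2 over Mfn1 was 0.741, 1.14 and 1.20 in BrM libraries 1, 2 and 3, against 0.659, 0.734 and 1.00 in parental ones. BrM library 1 lay among the parental libraries (1.28-fold higher in BrM, two-sided exact permutation p = 0.2). Oma1 over Yme1l1 was 0.0561, 0.0743 and 0.0727 in BrM, against 0.0298, 0.0341 and 0.0580 in parental libraries (1.72-fold higher, exact permutation p = 0.2). Only parental library 3, which exceeded BrM library 1, kept these groups from separating. Opa1 over Dnm1l, a fusion against a fission gene, was 0.640 to 0.673 in BrM and 0.652 to 0.697 in parental libraries (exact permutation p = 0.3), and Mff over Fis1 was 1.08 to 1.28 in BrM and 0.989 to 1.16 in parental libraries (exact permutation p = 0.6). With 3 libraries against 3 the smallest possible p is 0.1, so none of the 4 ratios could pass.

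**Figure D3:**
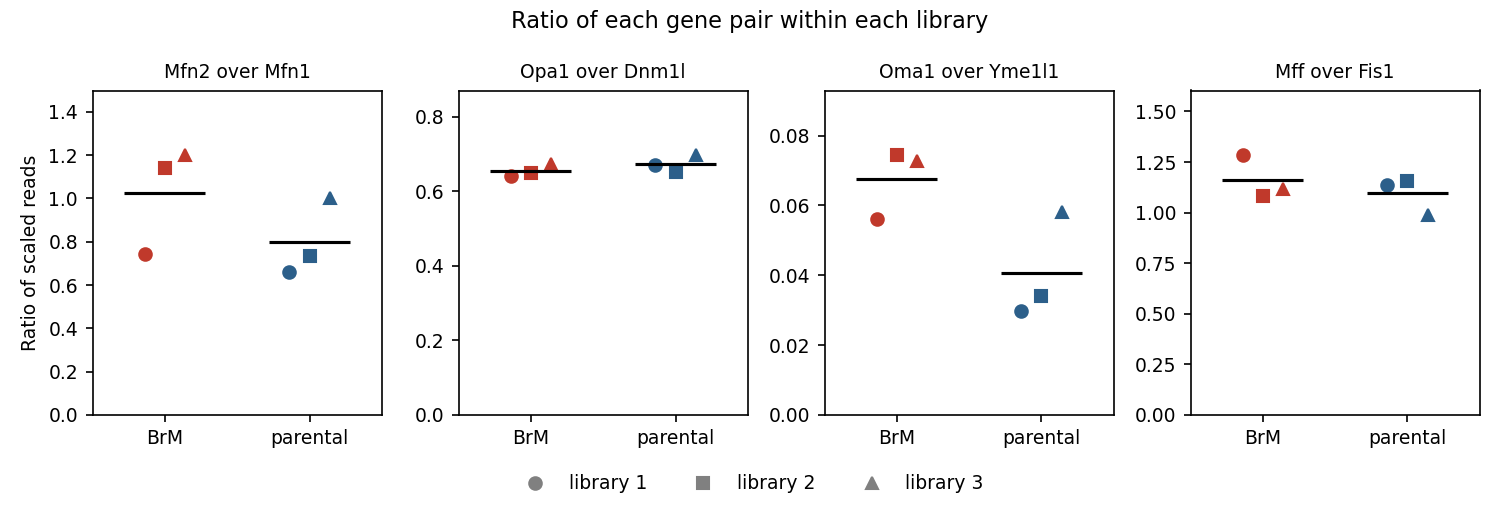
Ratio of scaled reads of each gene pair within a library (vertical axes, starting at 0) in BrM (red, left) and parental libraries (blue, right); symbols are library numbers and bars group means. The ranges overlap in all 4 panels, and Opa1 over Dnm1l varies least, from 0.640 to 0.697.

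Levels per length kept nearly the same order in both groups. Per kilobase of annotated exon, Fis1 came first and Dnm1l second in each of the 6 libraries, Fis1 at 1752 ± 153 scaled reads per kilobase in BrM and 1710 ± 64.5 in parental cells, and Dnm1l at 1425 ± 54.9 in BrM and 1177 ± 66.2 in parental cells. Oma1 was 9th in each library, at 157 ± 21.8 in BrM and 117 ± 37.2 in parental cells, and Gdap1 10th. Between them, Yme1l1, Mtfr1 and Opa1 shared ranks 3 to 6, Mfn1 and Mfn2 ranks 5 to 8, and Mff ranks 7 and 8. These neighbours did not differ beyond their spread in one or both groups: Yme1l1 stood at 621 ± 18.3, Mtfr1 at 655 ± 85.1 and Opa1 at 616 ± 37.5 in BrM, for example. Mfn1, at 388 ± 31.9 in BrM and 512 ± 51.6 in parental cells, came 7th by the mean in BrM and 6th in the parental line, changing places with Mfn2. The exon lengths are those of all annotated transcripts joined (9.76 kb for Mff, 1.71 kb for Fis1), so a gene with long unused exons comes out too low.

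Among the BrM libraries, library 1 differed from libraries 2 and 3 most in Mfn2. It was lower there by 0.46 on the log2 scale, where libraries 2 and 3 were 0.03 apart. Oma1 and Mtfr1 were also lower in library 1, by 0.35 and 0.34, and Mff was higher by 0.33. For Dnm1l, Fis1, Mfn1, Opa1 and Yme1l1 library 1 lay within 0.20 of the mean of the other 2. Leaving out any 1 library moved the fold change of none of the 9 by 1.5 times.

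The genes whose profiles over the 6 libraries were most like those of the 2 genes with the highest absolute log2 fold changes were Retsat, Spaca6 and Klk8 for Oma1 (Pearson r = 0.988, 0.986 and 0.985) and AI462493, Sec63 and Ywhab for Mfn1 (r = 0.998, 0.997 and 0.996). Among 11348 genes compared, 27 had r above 0.95 with Oma1 and 496 with Mfn1. The 6 points are 3 BrM and 3 parental libraries of unequal depth, so any difference between the groups or in depth enters these values.

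Around these genes, 15 of 91 tested genes from 10 lists on mitochondrial shape, transport, turnover and biogenesis passed the test, 5 higher and 10 lower in BrM, or 16.5%, where 28.1% of all tested genes passed; their median log2 fold change was 0.09. With chromosome medians removed 6 passed (Spire1, Ppp3cb, Trak1, Armcx3, Kif1b and Ppargc1a), and the other 9 had adjusted p-values from 0.0593 (Peo1) to 0.719 (Inf2). Of 9 further fission factors 2 rose, 1 fell and 6 did not pass (median 0.35). Spire1, an actin nucleator at fission sites, rose 2.97-fold (626 ± 96.4 in BrM and 212 ± 54.2 in parental cells; adjusted p = 0.00589). Its partner, the formin Inf2, rose 1.80-fold (10338 ± 3660 in BrM and 5556 ± 565 in parental cells; adjusted p = 0.0453). Inf2 passed without BrM library 1 but not without any single one of the other 5 (adjusted p 0.0598 to 0.130), and it lies on chromosome 12, whose median was 0.99; its log2 fold change was -0.15 with that median removed. Sh3glb1, which encodes endophilin B1, fell 1.42-fold (5450 ± 440 in BrM and 7737 ± 648 in parental cells; adjusted p = 0.0264), with no call without BrM library 2 or 3 or parental library 1 or 2 (0.0703 to 0.108). Of 4 other fusion factors 1 fell, the outer membrane protein gene Mtch2 (3828 ± 263 in BrM and 6784 ± 986 in parental cells, 1.76-fold; adjusted p = 0.00824), and 3 did not pass (median -0.33).

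Of 11 genes for modifiers of DRP1, 1 rose, 2 fell and 8 did not pass (median 0.14). Ppp3cb, a catalytic subunit of calcineurin, the phosphatase that activates DRP1, fell 2.08-fold (1899 ± 232 in BrM and 3927 ± 198 in parental cells; adjusted p = 0.00276). The phosphatase gene Pgam5 rose 1.53-fold (4027 ± 385 in BrM and 2641 ± 316 in parental cells; adjusted p = 0.0222). The call of Pgam5 was lost without BrM library 2 or 3 or parental library 1 or 2 (0.0749 to 0.0923). Of 14 genes for inner membrane proteolysis and import processing 1 rose and 13 did not pass (median 0.29). The riser was Pmpcb, a subunit of the presequence peptidase (4201 ± 248 in BrM and 2979 ± 160 in parental cells, 1.41-fold; adjusted p = 0.0216), which lost its call without BrM library 2 or 3 or parental library 2 or 3 (0.0590 to 0.0940). Of 9 genes for cristae structure 0 passed with limma (median 0.16), and 1 had an unadjusted p under 0.05. Of these 9, edgeR called 0 (3753 of all 13821 tested genes) and DESeq2 3 (5075 of 13821). Immt, the core of the cristae junction complex, was at 8142 ± 1952 in BrM and 7497 ± 187 in parental cells, and Samm50 at 4623 ± 709 in BrM and 4102 ± 331 in parental cells.

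Of 8 genes for mitochondrial transport along microtubules 3 fell and 5 did not pass (median -0.60). Trak1, the adaptor that links mitochondria to motors, was at 1971, 2114 and 2373 in BrM libraries 1, 2 and 3, against 7111, 5644 and 7897 in parental ones. The groups were far apart, with a fall of 3.18-fold (log2 fold change -1.67, SE 0.16, adjusted p = 0.000975). Armcx3, an outer membrane protein that binds this transport complex, fell 2.85-fold (699 ± 165 in BrM and 2021 ± 579 in parental cells; adjusted p = 0.00991), and the kinesin gene Kif1b fell 1.63-fold (2497 ± 171 in BrM and 4098 ± 571 in parental cells; adjusted p = 0.0137), with no call without BrM library 2 (adjusted p = 0.0601) or parental library 2 (0.0561). Of 12 mitophagy genes 1 fell and 11 did not pass (median -0.12): the receptor gene Optn fell 2.25-fold (869 ± 240 in BrM and 1946 ± 459 in parental cells; adjusted p = 0.0169) and lost its call without BrM library 2 or 3 or parental library 1 (0.0563 to 0.0633).

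Of 4 genes of the relay from OMA1 to ATF4 0 passed with limma (median 0.00) and 0 had an unadjusted p under 0.05. Of these 4, edgeR (3753 of all 13821 tested genes) and DESeq2 (5075 of 13821) called 0. Atf4, the transcription factor at its end, was at 12269 ± 701 in BrM and 12327 ± 4696 in parental cells, and Atf5 at 3598 ± 1520 in BrM and 4875 ± 2804 in parental cells. Of 14 genes for mitochondrial biogenesis and mitochondrial DNA 1 rose, 1 fell and 12 did not pass (median 0.23). Ppargc1a, which encodes the coactivator PGC-1α, was at 416, 138 and 145 in BrM libraries 1, 2 and 3, against 1881, 969 and 1010 in parental ones. Every BrM library was below every parental one, a fall of 6.02-fold (log2 fold change -2.59, SE 0.50, adjusted p = 0.0111). Peo1, the helicase of mitochondrial DNA, rose 1.65-fold (1848 ± 115 in BrM and 1123 ± 127 in parental cells; adjusted p = 0.0127) and lost its call without BrM library 2 or 3 or parental library 2 (0.0538 to 0.0631). Of 6 genes for the division of peroxisomes, which share DRP1, MFF and FIS1 with mitochondria, 1 fell and 5 did not pass (median -0.41). This was Acbd5, a tether to the endoplasmic reticulum (1766 ± 45.3 in BrM and 2975 ± 166 in parental cells, 1.68-fold; adjusted p = 0.00482). Genes encoded by mitochondrial DNA were not analysed here.

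**Figure D4:**
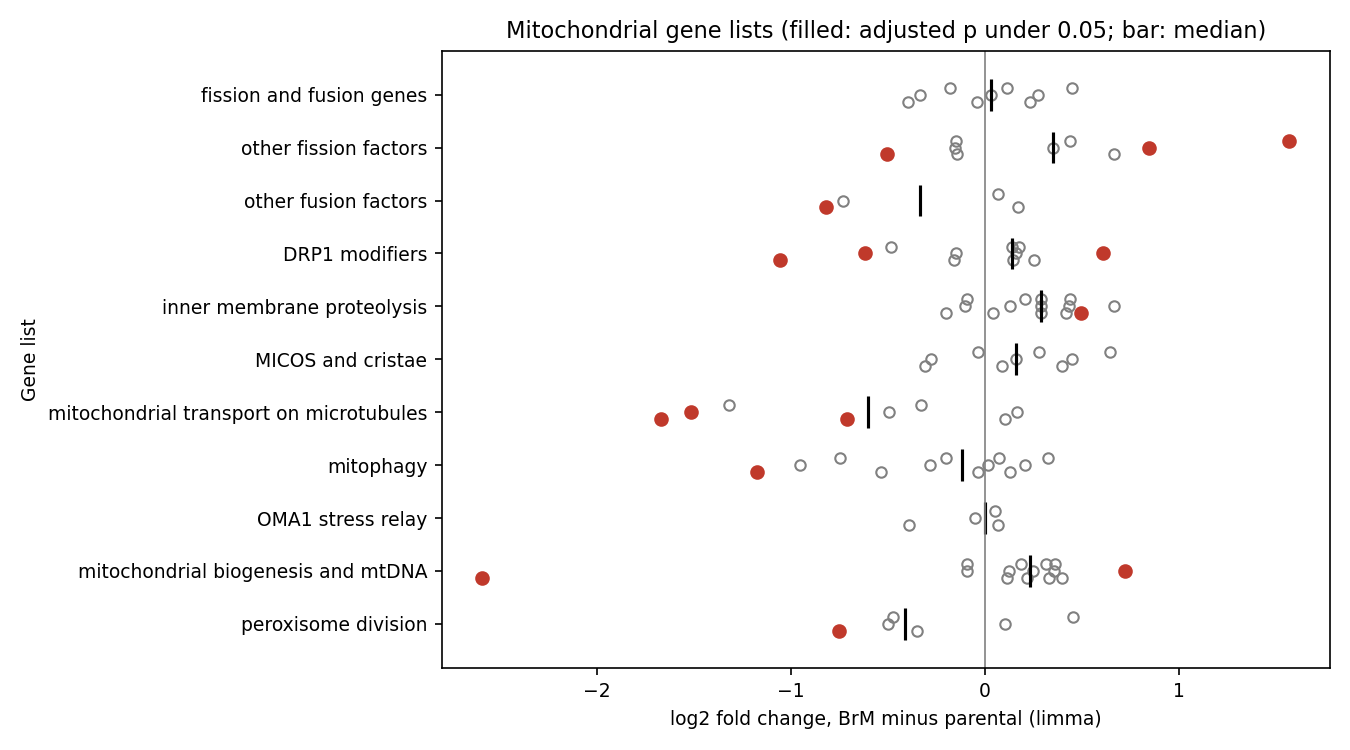
log2 fold change of BrM minus parental (horizontal axis) for the tested genes of each list (rows). Filled points passed at an adjusted p under 0.05, open points did not, and bars are list medians; the fission and fusion row has no filled point, and Trak1 and Ppargc1a, at -1.67 and -2.59, are the lowest filled points of the transport and biogenesis rows.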

How the data were processed

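Polyadenylated RNA of the mouse line was sequenced on an Illumina HiSeq. Per the labels' protocols, cells were cultured, while the series' design field speaks of mouse brains carrying human lines; kits and media are not assigned to libraries, so their differences cannot be told apart from the groups. The authors deposited a signal value per gene and library, a read count divided by a library factor, and their submitters' processing notes name STAR, HTSeq, GRCh38 and GRCm38 without versions. All values above 0 (100%) were whole multiples of 1 read within 0.01, which recovered the reads. Library numbers are those of the table's columns, which could not be tied to sample titles.

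The 13821 genes whose mean value reached 10 entered limma 3.58.1 (R 4.3.3, log2 of the value plus 1, intensity trend, group alone, Benjamini-Hochberg over all tested genes, threshold 0.05), which called 3881. Fold changes are on that scale. Alternatives were other pseudocounts, filters, scalings, moderation and weights, a replicate block, edgeR 4.0.16 (3753 called) and DESeq2 1.42.0 (5075 called) on recovered reads, removed chromosome medians, averaged BrM libraries 2 and 3, and each library left out. Ratios were tested by exact permutation. The members and lists were chosen with earlier results of these data known. Outside the members, up to 4 called genes per list with the smallest p-values are named, or the 2 of highest mean where none was called; 1 named gene is not reported here. Positions and exon lengths came from GENCODE M21 (98.1% of listed genes matched). The fits were tested on simulated data whose planted changes were all larger than the differences of the tested fission and fusion genes. That test does not cover differences of their size.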

Additional observations from a re-analysis of the deposited data

How the results depend on the processing

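The count of 0 called fission and fusion genes became 1 with no filter on low values (Gdap1), 5 with array weights (Dnm1l, Mfn1, Opa1, Oma1 and Yme1l1), 3 with DESeq2 (Dnm1l, Mfn1 and Yme1l1) and 0 to 3 with 1 library left out, the 3 being without BrM library 1. It was 0 under the other pseudocounts, filters, scalings and moderations, edgeR, both replicate blocks, removed chromosome medians and averaged BrM libraries 2 and 3. The 3881 genes called in all became 8485 with array weights and 5075 with DESeq2. They became 2279 with BrM libraries 2 and 3 averaged, and 2191 (without BrM library 2) to 6519 (without BrM library 1) with 1 library left out. The 15 surrounding genes called became 55 with array weights, 23 with DESeq2, 6 with chromosome medians removed, 9 with BrM libraries 2 and 3 averaged, and 8 (without BrM library 2) to 37 (without BrM library 1) with 1 library left out. Among called genes and ratios, a sign turned for 2: Inf2 to -0.15 with chromosome medians removed, and the log2 difference of Mff over Fis1 to -0.027 with medians in place of means. The ratios were recomputed only with medians in place of means and with each library left out. Of fission and fusion genes, none of them called, the sign turned under 4 of 21 alternatives for Mfn2, 3 for Fis1, and 1 each for Mff, Mtfr1 and Yme1l1. Some of these fits had fewer libraries or another number of genes, and others, such as array weights and DESeq2, did not. The cause of the changes was not tested.

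The deviations of same-numbered libraries correlated at 0.304, -0.088 and 0.326. Those of differently numbered libraries ran from -0.341 (BrM 1 with parental 3) to 0.311 (BrM 2 with parental 3). The column numbers were therefore not taken to pair the libraries. A replicate block by column number, added after seeing the data, gave 4040 genes, 0 fission and fusion genes and 16 surrounding genes. With the 4 libraries numbered 1 or 2 alone, the replicate block gave 2029, 0 and 5. The blocks planned on the numbers in sample titles were not run, since columns could not be tied to titles. With 3 libraries a group, the printed intervals cover the spread between libraries in the main fit, which may be technical. They are not adjusted for the number of genes and do not bound the difference between the lines. For Gdap1 the depth allows only the counting interval given.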
